A study of Mus musculus with 10 samples.

Results

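The neuronal pentraxins are Nptx1, Nptx2 and Nptxr, 3 proteins that gather AMPA-type glutamate receptors at excitatory synapses, and they are described here in the hippocampus of adult mice whose dams had received estradiol in early pregnancy. The family was chosen by the measured signal of Nptx2, which was higher in the estradiol group in these arrays, so its difference between the groups is given as a description, without a test. The array carries 27339 gene names, of which 2, Nptx1 and Nptx2, are those of members. Of its 41174 non-control probes, 2 carry the names of the family in the scanner files, 1 for each of these genes, and 0 are named Nptxr. A further 2 probes are named Npcd, a gene that joins the neighbouring Cbx6 to Nptxr. The accessions listed for both Npcd probes include the Nptxr transcript in the RefSeq gene table, which makes 4 probes for the 3 genes. These 2 probes cannot separate Nptxr from the joined transcript, and they are called Npcd/Nptxr.

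Nptx1 and Nptx2 are secreted by excitatory neurons, while Nptxr is anchored in the membrane and can be released by cleavage. The 3 proteins assemble into mixed complexes that bridge the synaptic cleft and bind the outer part of AMPA receptors. Nptx2 is known as an immediate early gene, whose transcription rises with neuronal activity, and its protein is known for recruiting AMPA receptors that contain the Gria4 subunit to parvalbumin interneurons.

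The samples were total RNA from the hippocampus of ICR mice, an outbred laboratory stock, 10 adult offspring in all. In the high estradiol group, HE, 5 offspring came from dams given estradiol valerate, an estradiol ester, by mouth in corn oil at a daily 100 µg/kg, starting on E5.5 of gestation and ending on E11.5. In the control group, NC, 5 offspring came from dams given corn oil alone. Each animal was measured on 1 Agilent 1-colour array, and its litter is not given, so errors and p-values below measure the spread between these animals only.

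Values are log2 signals relative to the 75th percentile of each array, so 0 is the level below which 75% of its probes lie, and a difference of 1 is a doubling. That percentile was a signal of 899 to 1289, and between 70.3% and 78.9% of probes per array stood well above background. Precision is limited by having 5 arrays per group. The arrays were spread over 3 slides, with NC 1 to NC 4 on slide 1, NC 5 beside HE 1 and HE 2 on slide 2, and the remaining HE arrays on slide 3. All animals are labelled male, but the brightest probe of Xist, the RNA of the inactive X chromosome, was at 3.2 or higher on 7 arrays. The exceptions were NC 5, HE 4 and HE 5, at -4.53 or lower. On its dimmer probes Xist was at -2.27 or higher on the 7 arrays and at -5.45 or lower on the other 3. On these 7 arrays the brighter probe of Ddx3y, a Y-linked gene, was at -5.54 (NC 2) or lower, against 1.08 to 1.38 on the other 3. This probe was well above background on 2 NC and 2 HE arrays. The dimmer Ddx3y probe was at -8.22 or lower on the 7 arrays and at -3.37 to -2.96 on the other 3. The signals of 7 arrays thus did not match the label.

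The probes show which part of each transcript was measured. The scanner files place them on mm9, each as 60 consecutive genomic bases, and so within 1 exon. Whether that is coding sequence was not read here. The first 30 bases are given for the 3 probes that lie far along their transcripts, and all 60 for the internal one, with no letters capitalised.
Nptx2: catctggtgccaaaagttcatttgcagctt
Nptx1: ataacacagtattatttctcttactgtaga
Npcd/Nptxr, far probe: ctatctactagtcccagcacctttggcctg
Npcd/Nptxr, internal probe: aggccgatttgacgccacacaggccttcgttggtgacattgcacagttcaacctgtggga

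The Nptx2 probe lies at chr5:145317905-145317964 on the plus strand and starts at base 2108 of its transcript. The Nptx1 probe lies at chr11:119400976-119401035 on the minus strand and starts at base 4281. Both Npcd/Nptxr probes are on the minus strand of chromosome 15, the far probe at chr15:79617116-79617175, from base 4478, and the internal probe at chr15:79620276-79620335, from base 1318. Their GC contents differ. It is 43.3% for Nptx2, 25% for Nptx1, and 50% and 55% for the far and internal Npcd/Nptxr probes, against a median of 40% over all probes.

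All 4 probes were well above background on every array. The raw processed signal of Nptx2 ran from 399 to 2750, and that of Nptx1 from 25.8 to 178. The far Npcd/Nptxr probe gave 1590 to 10400 and the internal probe 57.7 to 338. Nptx1 was the probe closest to background, and the scanner's own error estimate for it reached 15.3% of the signal on NC 5, against 10.1% at most for Nptx2. Signals of different probes are not compared with each other, since probes differ in how well they bind.

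Nptx2, the secreted and activity-induced member, was higher in HE, with no overlap between the groups. Its signal was -0.55, -0.11, -0.08, -1.39 and -1.12 on NC 1 to NC 5, and 0.82, 0.85, 1.23, 0.75 and 1.1 on HE 1 to HE 5. NC 4 and NC 5 were lowest, and the lowest HE array, HE 4, lay 0.83 above the highest NC array, NC 3. The group means were -0.65 ± 0.59 in NC and 0.95 ± 0.2 in HE (SD, n = 5 each), a difference of 1.6 ± 0.26 (SE), or 3.03-fold. This contrast chose the family, so nothing is read from its being called. For background, all 5 HE arrays lay above every NC array for 5.90% of the 20068 genes tested, and 6.82% were called higher in HE by limma at a Benjamini-Hochberg adjusted p under 0.05.

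Nptx1, the other secreted member, had a higher mean in HE, but its groups overlapped. Its signal was -3.23, -4.39, -4.19, -3.8 and -5.25 on NC 1 to NC 5, and -2.95, -2.76, -3.93, -2.84 and -3.73 on HE 1 to HE 5. HE 1, HE 2 and HE 4 lay above all NC arrays, while HE 3 and HE 5 lay among them and NC 5 was far the lowest. The means were -4.17 ± 0.75 and -3.24 ± 0.55 (SD, n = 5 each), a difference of 0.93 ± 0.37 (SE). Only Nptx1 among the members changed sign with the processing. With normexp background correction the difference was -0.49 ± 0.44. When each array's local background was first capped at its 99th percentile, a setting chosen after seeing the data, it was 0.36 ± 0.18.

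Npcd/Nptxr, which stands for the membrane-anchored member, also overlapped between the groups. On the far probe it was 1.78, 1.76, 1.67, 2.89 and 0.7 on NC 1 to NC 5, and 2.75, 3.01, 2.31, 3.03 and 2.99 on HE 1 to HE 5. NC 4 alone reached the HE range and NC 5 lay far below the other NC arrays. The means were 1.76 ± 0.78 and 2.82 ± 0.31 (SD, n = 5 each), a difference of 1.06 ± 0.34 (SE), or 2.08-fold.

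The internal Npcd/Nptxr probe showed the same order of extremes. It was -3.2, -2.97, -3.32, -2.09 and -4.09 on NC 1 to NC 5, and -2.3, -1.94, -2.6, -1.97 and -1.93 on HE 1 to HE 5. As on the far probe, NC 4 was the highest and NC 5 the lowest control, and HE 3 was the lowest HE array. Its difference was 0.98 ± 0.31 (SE), or 1.98-fold. Cbx6, a Polycomb protein gene that the joined transcript starts from, was looked at for this reason after its values were seen. Its 3 probes were 0.65 to 1.11 higher in HE. On each of them all HE arrays lay above all NC arrays, as for 5.90% of all genes.

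**Figure D1:**
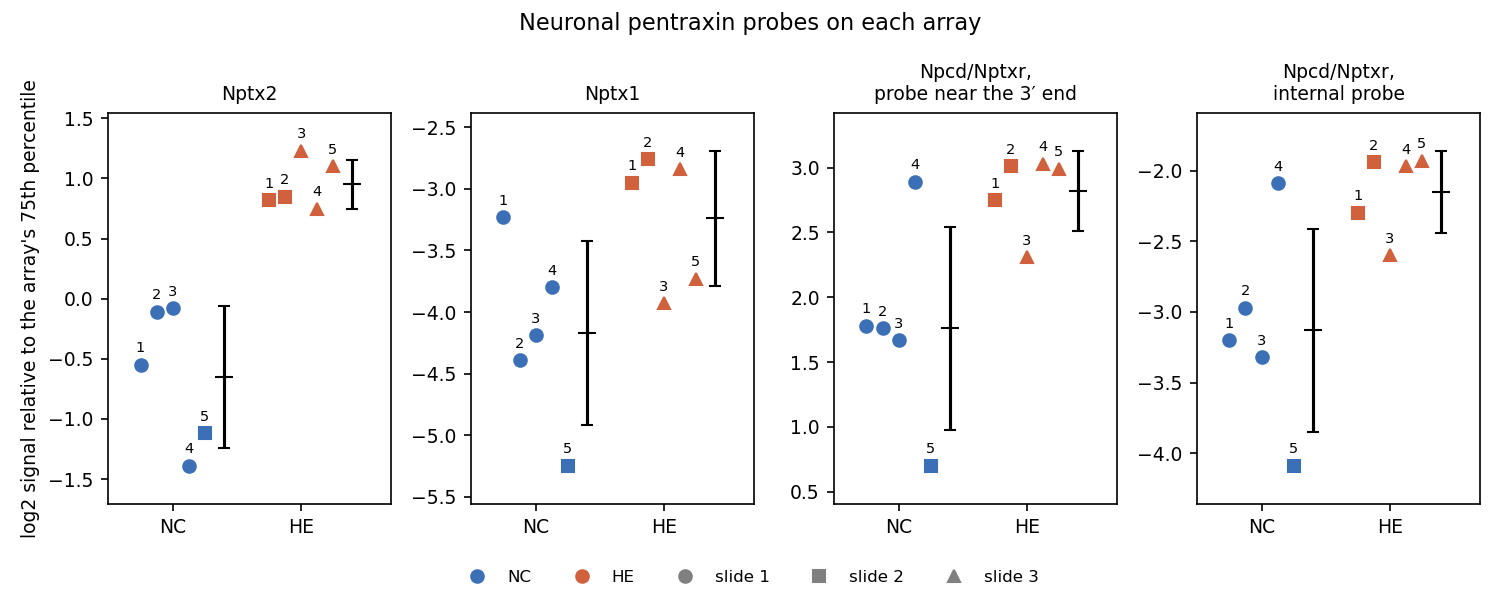
Log2 signal of the 4 probes relative to the 75th percentile of each array, with 1 point per animal numbered by replicate, marker shape for the slide, and bars for mean ± SD (n = 5 per group). Each panel has its own vertical range. For Nptx2 the HE arrays (0.75 to 1.23) lie above all NC arrays (-1.39 to -0.08), while the groups overlap on the other 3 probes.

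The order of the control animals differed between the members. NC 4 was the lowest control for Nptx2 (-1.39) but the highest for Npcd/Nptxr (2.89). NC 5 was the lowest control for Nptx1 (-5.25) and for Npcd/Nptxr (0.7), and the next to lowest for Nptx2 (-1.12). HE 3 had the highest Nptx2 of all arrays (1.23) and the lowest HE values of Nptx1 (-3.93) and Npcd/Nptxr (2.31).

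Slide and group could be compared together only on slide 2, which held NC 5, HE 1 and HE 2. On this slide Nptx2 was 1.95 higher in HE than on the single NC array, Nptx1 2.39 higher and Npcd/Nptxr 2.18 higher, and the fit with slide as a block gives these same values (SE 0.5, 0.54 and 0.52). NC 5 is the only control behind each of them, and it is also the array on slide 2 that lacks high Xist. On the 7 arrays with high Xist, where no slide holds both groups and the 2 cannot be told apart, the differences were 1.5 ± 0.33 for Nptx2, 0.69 ± 0.37 for Nptx1 and 0.66 ± 0.34 for Npcd/Nptxr (SE). Without NC 5 they were 1.48, 0.66 and 0.79.

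**Figure D2:**
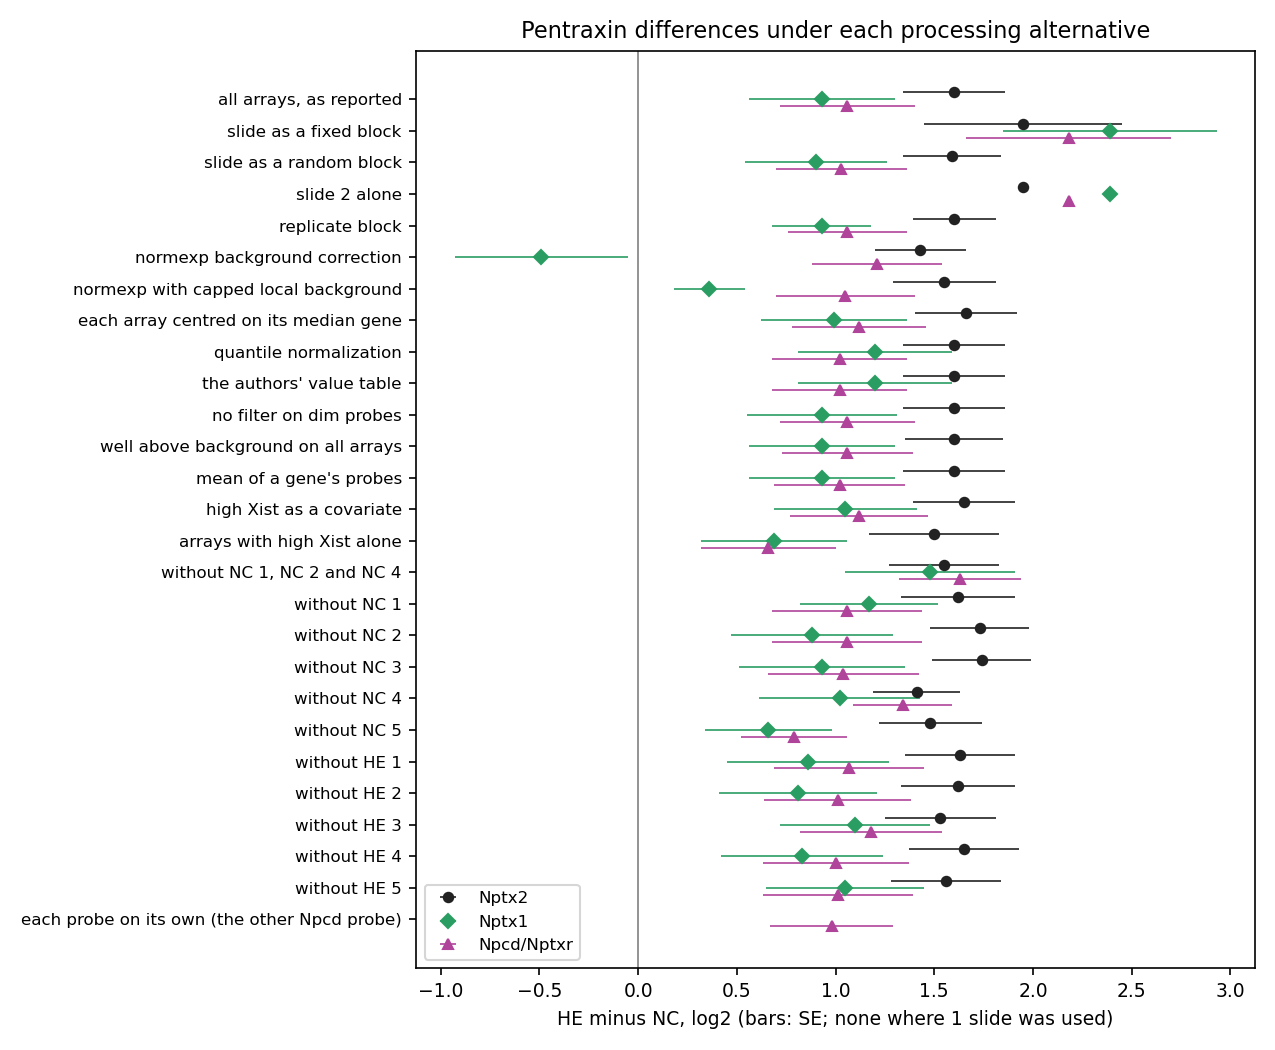
Difference HE minus NC (log2) of Nptx2, Nptx1 and Npcd/Nptxr over all arrays and under each alternative, with bars for the SE where a fit gave one. Nptx2 stays between 1.41 and 1.95, Npcd/Nptxr between 0.66 and 2.18, and Nptx1 runs from -0.49 with normexp background correction to 2.39 within slide 2.

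Markers of neurons and of neighbouring regions moved with the groups, and their part in the pentraxin differences was not tested. In whole tissue, fewer cells of a type and less RNA per cell cannot be told apart. A list of 8 genes stood for pyramidal neurons, which make the pentraxins, though some of its genes are made by other neurons too. Of these 8, 2 were called higher in HE and 0 lower, with a median difference of 1.01, where 6.82% of all genes were called higher. Their summed level, in units of the 75th percentile signal, was 158 to 383 in NC and 365 to 463 in HE. The median of this list was 2.89, 2.09, 2.31, 3.09 and 0.91 on NC 1 to NC 5, and 3.16, 3.48, 2.79, 3.63 and 3.28 on HE 1 to HE 5. It was thus lowest on NC 5 and highest among the controls on NC 4, as Npcd/Nptxr was. For Nptx1 the highest control was NC 1 (-3.23), with NC 4 next (-3.8), and the lowest was NC 5 (-5.25). For Nptx2 NC 4 was the lowest control (-1.39). HE 3 was the lowest HE array for the list (2.79), Npcd/Nptxr (2.31) and Nptx1 (-3.93), and the highest for Nptx2 (1.23). Of 10 CA1 pyramidal markers, 4 were called higher and 0 lower, with summed levels of 33.7 to 43.6 in NC and 49.9 to 66.6 in HE.

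Several lists had more genes called lower than higher in HE, where 13.3% of all genes were called lower. Of 16 markers of thalamus and habenula, which lie beside the hippocampus, 10 were called lower, with summed levels of 37.9 to 99.4 in NC and 14.3 to 40.1 in HE. Of 12 myelin genes 9 were lower (443 to 569 against 256 to 336), and of 7 midbrain and hypothalamus genes 5 were lower (2.7 to 43.2 against 0.896 to 2.26). Of 7 liver plasma protein genes 3 were lower (1.49 to 18.8 against 0.403 to 13.6). The list medians were -7.6 to -1.33 in NC and -8.77 to -6.09 in HE, so a minority of these genes carried the higher sums in HE. Whether that signal came from liver was not tested. Of all genes, 20.1% were called in either direction. Of 12 markers of neocortex and subiculum 2 were higher and 0 lower, and of 8 astrocyte genes 0 were higher and 2 lower. Of 9 markers of CA2 and CA3 cells and of 7 of microglia, 1 each was higher and 0 were lower, and of 10 of dentate granule cells 1 was higher and 1 lower. Leaving out NC 1, NC 2 and NC 4, the arrays with high liver transcripts, the difference was 1.55 for Nptx2, 1.48 for Nptx1 and 1.63 for Npcd/Nptxr.

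**Figure D3:**
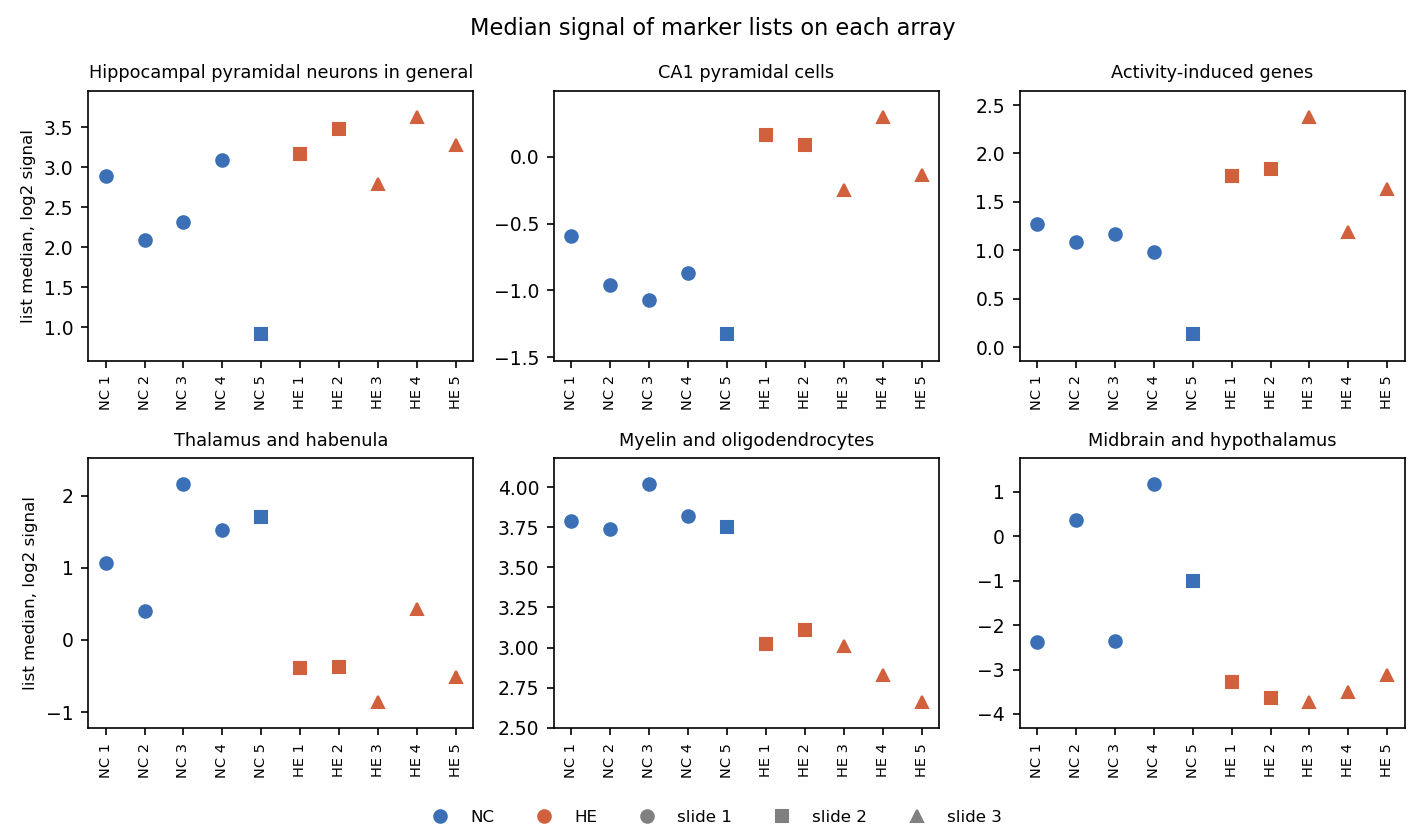
Median log2 signal of 6 gene lists on each array, with colour for the group and marker shape for the slide. The pyramidal neuron list is lowest on NC 5 (0.91), the activity-induced list is highest on HE 3 (2.38), and the myelin list is at 2.66 to 3.11 in HE against 3.74 to 4.02 in NC.

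Whether the members varied together from animal to animal was examined within the groups, after each value was set relative to its group mean. This removes the contrast that chose them. For Nptx1 and Nptx2, Pearson's r was -0.104 (exact permutation p = 0.82) and Spearman's rho -0.211 (p = 0.621, exact permutation) over 10 arrays. For Nptx2 and Npcd/Nptxr, r was -0.268 (exact permutation p = 0.646) and rho -0.382 (p = 0.355, exact permutation), and without NC 3 and NC 4 r was 0.44. Neither relation passed 0.05 at this number of arrays.

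Nptx1 and Npcd/Nptxr had the highest correlation among the members. Pearson's r was 0.647 (exact permutation p = 0.08, adjusted 0.211) and rho was 0.69 (exact permutation p = 0.0465, adjusted 0.0949 over the 4 relations computed). The relation rests on NC 5 and HE 3, the arrays with the lowest Nptx1 of their groups, since without them r was 0.114 (exact permutation p = 0.8). For Nptx2 and the median of 28 activity-induced genes, r was 0.545 (exact permutation p = 0.105, adjusted 0.211) and rho 0.665 (exact permutation p = 0.0474, adjusted 0.0949). Without NC 3 and NC 4, r was 0.769 (exact permutation p = 0.0764). None of the 4 relations passed 0.05 after Benjamini-Hochberg adjustment in these two-sided tests, and slide was not taken into account in them.

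**Figure D4:**
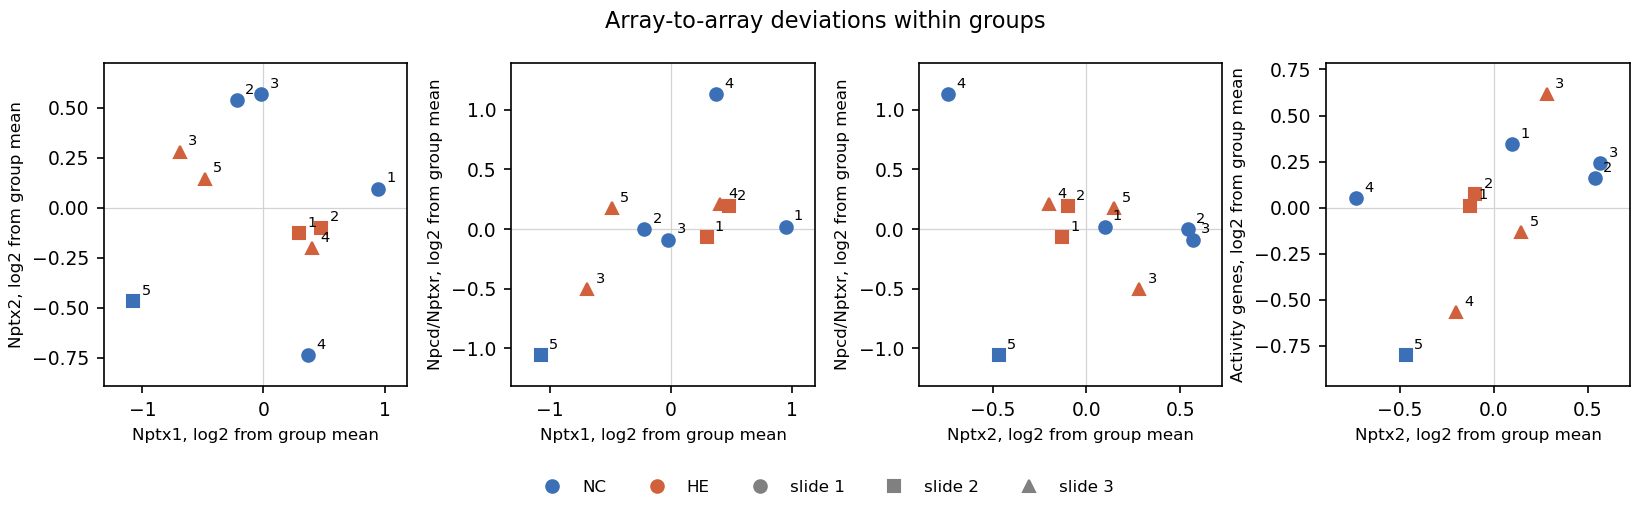
Deviation of each array from its group mean (log2) for Nptx1 and Nptx2, Nptx1 and Npcd/Nptxr, Nptx2 and Npcd/Nptxr, and Nptx2 and the median of the activity-induced genes, with points numbered by replicate. The second panel's r of 0.647 falls to 0.114 without NC 5 and HE 3, and in the fourth panel r is 0.545.

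As a description, tested genes with an ordinary symbol (no clone or predicted-gene names) and a value on every array were ranked, without the members. The 6 whose deviations from the group mean were most like those of Nptx2 are named. They were Exosc9, a subunit of the RNA exosome (r = 0.965 over 10 arrays), Ppp1r3d (0.92), a targeting subunit of protein phosphatase 1, Timm13 (0.918), a mitochondrial import protein, Eri3 (0.906), Npy (0.899) and Ccdc107 (0.895). Npy encodes neuropeptide Y, a peptide of hippocampal interneurons. It was 0.82 ± 0.24 (SE) higher in HE, and Eri3 was 0.57 ± 0.09 higher (limma, Benjamini-Hochberg adjusted p = 0.0371 and 0.00839). For Exosc9, the most alike of the 6, the difference was 0.06 ± 0.18 (adjusted p = 0.824, limma). The points share arrays and slides, and the 6 are the top of a ranking drawn from the 20068 genes. Genes left out by name may lie higher.

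The partners of the pentraxins were read from 7 lists of genes, of which 92 of 98 were tested. By limma with Benjamini-Hochberg adjustment over all genes, 14 of the 92 rose and 8 fell in HE, where 20.1% of all genes were called, 6.82% higher and 13.3% lower. The median difference was 0.28 over the lists and -0.04 over all genes. Higher genes made up 63.6% of the calls in the lists and 34% of those in all genes, the latter 44.2% after quantile normalization and 44.8% with arrays centred on their median gene. With slide as a block, 4 of the 92 were called, of which Cacng3 and Egr3 were among the 22. The other 2, Nr4a3 and Ptgs2, were seen only after their values were known. On the 7 arrays with high Xist, limma called 0, with 31 at an unadjusted p under 0.05, 21 of them higher. Leaving out 1 array gave 9 to 25, with 9 without NC 5 or HE 5, 10 without NC 2, 11 without HE 1, and 14 without HE 2 or HE 3.

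**Figure D5:**
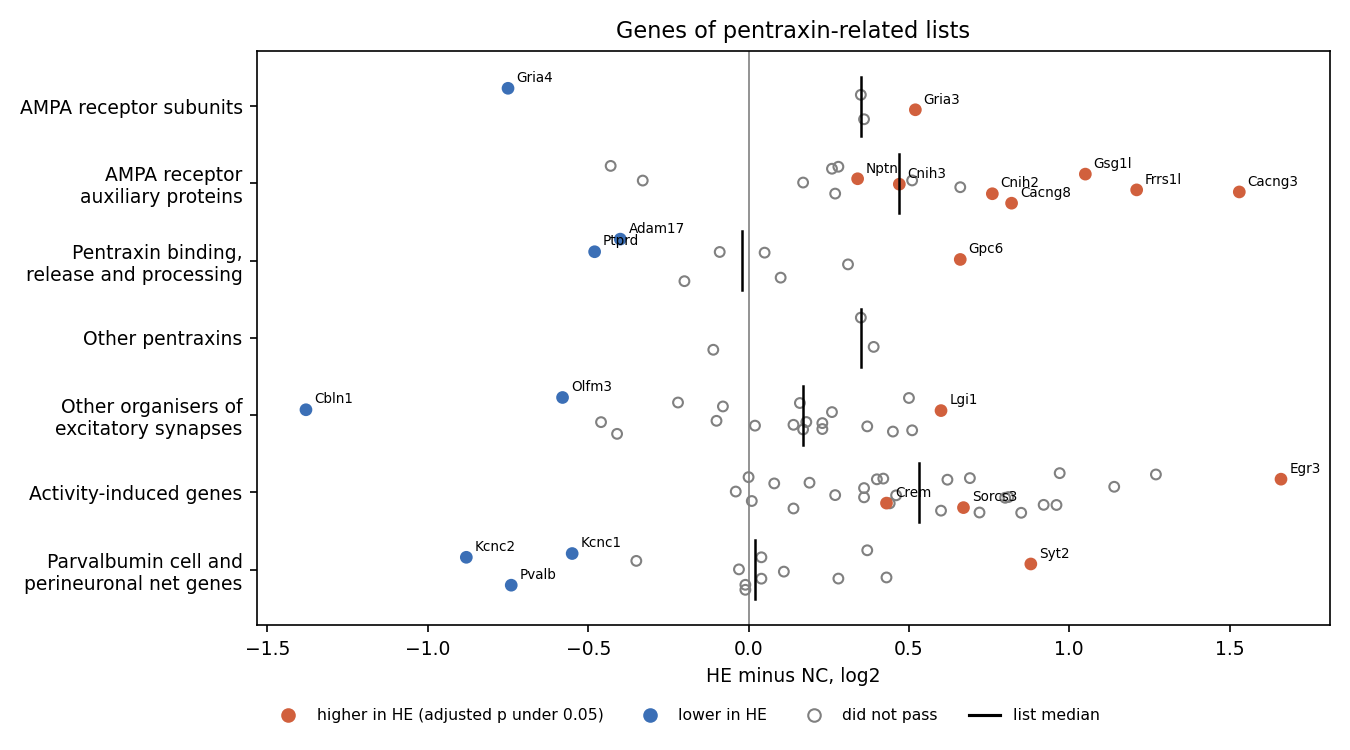
Difference HE minus NC (log2) of each tested gene of the 7 lists, filled where limma's adjusted p was under 0.05, with a line at the median of each list. The medians are 0.47 for AMPA receptor auxiliary proteins, 0.53 for activity-induced genes and -0.02 for pentraxin binding, release and processing.

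The 4 subunits of the AMPA receptor itself, the target of the pentraxins, did not move together. Gria4, the subunit that Nptx2 is known to recruit on parvalbumin cells, fell in HE. It was 2.58, 2.39, 1.9, 2.12 and 2.48 on NC 1 to NC 5, and 1.57, 1.62, 1.2, 1.66 and 1.65 on HE 1 to HE 5. All HE arrays lay below all NC arrays, as for 10.5% of all genes, and the difference was -0.75 ± 0.15 (SE, limma adjusted p = 0.0133). Thalamus and habenula markers fell as well, 10 of 16 with a median of -1.65, and their part in the fall of Gria4 was not tested. Gria3 rose by 0.52 ± 0.13 (adjusted p = 0.0243, limma), with overlapping groups and 1 of its 3 probes of opposite sign. Gria2, the subunit that keeps calcium out, differed by 0.36 ± 0.16 and Gria1 by 0.35 ± 0.19 (limma adjusted p = 0.136 and 0.222), and neither passed. NC 4 had the highest Gria1 of all arrays, 4.83. As the mean of its probes Gria3 was 0.16 and not called (limma adjusted p = 0.427). Neither Gria3 nor Gria4 passed with slide as a block, at differences of 0.54 ± 0.26 and -0.88 ± 0.3 (limma adjusted p = 0.242 and 0.146). Gria4 passed with any 1 array left out, and Gria3 did so in 7 of 10 such fits, not without NC 5 (0.49, limma adjusted p = 0.0553), HE 4 or HE 5.

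Auxiliary proteins, which assemble AMPA receptors and set their opening and traffic, had the most calls in 1 direction among the 7 lists. Of 15 tested, 7 rose, 0 fell and 8 did not pass, where 6.82% of all genes were called higher. Differences were above 0 for 13 of the 15, and for 9099 of all 20068 genes. The count of 7 fell to 2 without NC 2, to 3 without NC 5, HE 1, HE 4 or HE 5, to 4 without NC 3, HE 2 or HE 3, and to 1 with slide as a block. On the 7 arrays with high Xist limma called 0 of the 15, with 5 at an unadjusted p under 0.05. Cacng3, a transmembrane AMPA receptor regulatory protein of forebrain, was -0.13, -0.63, -0.52, -0.61 and -1.46 on NC 1 to NC 5, and 0.78, 0.61, 1.42, 0.63 and 0.85 on HE 1 to HE 5. All HE arrays lay above all NC arrays, as for 5.90% of all genes, with HE 3 highest and NC 5 lowest. The difference was 1.53 ± 0.24 (SE), or 2.88-fold (limma adjusted p = 0.00796), and it kept its call under 24 of 25 alternatives.

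Frrs1l, which helps to assemble AMPA receptors in the endoplasmic reticulum, was 2.4, 1.41, 2.07, 1.5 and 1.58 on NC 1 to NC 5, and 2.93, 3.17, 2.97, 3.26 and 2.64 on HE 1 to HE 5. Its HE arrays also lay above all NC arrays, as for 5.90% of all genes, and it rose by 1.21 ± 0.2 (limma adjusted p = 0.00931). Cnih2, a cornichon protein that slows receptor closing, rose by 0.76 ± 0.2 (limma adjusted p = 0.0255), and Cacng8, the regulatory protein most known from hippocampus, by 0.82 ± 0.23 (limma adjusted p = 0.0332). Both overlapped between the groups. Frrs1l, Cnih2 and Cacng8 did not pass with slide as a block, at larger differences of 1.47 ± 0.43, 1.26 ± 0.28 and 1.41 ± 0.42 (limma adjusted p = 0.111, 0.0737 and 0.119). With normexp background correction Cacng8 was -0.34. With 1 array left out, Cacng3 and Frrs1l passed in 10 of 10 fits, Cnih2 in 7, not without NC 2 (0.74, limma adjusted p = 0.0602), HE 3 or HE 4, and Cacng8 only in those without NC 1, NC 4 or HE 3. Gsg1l, Cnih3 and Nptn were the other 3 that rose.

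Proteins that bind, release or process the pentraxins gave 1 call higher and 2 lower among 8. Of all genes, 6.82% were called higher and 13.3% lower. Adam17, a sheddase known to cleave Nptxr from the membrane, fell by 0.4 on the log2 scale (SE 0.1, limma adjusted p = 0.0265), with values of 0.24 to 0.55 in NC and -0.19 to 0.16 in HE. All its HE arrays lay below all NC arrays, as for 10.5% of all genes. Ptprd, a presynaptic receptor phosphatase linked to the release of Nptx1, fell by 0.48 (SE 0.14, adjusted p = 0.034, limma), with 1 of its 5 probes of opposite sign, and was -0.06 as the mean of its probes (limma adjusted p = 0.823). Gpc6, a glypican of astrocytes, rose by 0.66 ± 0.21 (limma adjusted p = 0.0471), though it was -0.53 with normexp background correction. C1qc, a chain of the complement protein C1q that neuronal pentraxins bind, differed by -0.2 ± 0.11 (limma adjusted p = 0.227). Of the 3 called, 0 passed with slide as a block, at -0.21 ± 0.19 for Adam17, -0.41 ± 0.27 for Ptprd and 0.43 ± 0.43 for Gpc6. After normexp background correction 0 passed as well, with Adam17 at -0.35 and Ptprd at -0.32 (limma adjusted p = 0.0779 and 0.0949). With 1 array left out, Adam17 passed in 7 of 10 fits, not without NC 2 (-0.39, limma adjusted p = 0.0602), HE 4 or HE 5, while Ptprd passed in 3 and Gpc6 in 2.

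The other members of the pentraxin superfamily, which act in innate immunity and blood, lay close to background. Ptx3 and Ptx4 were each well above it on 2 NC and 4 HE arrays, and Apcs on 4 and 5. Their differences were 0.39 ± 0.44, 0.35 ± 0.42 and -0.11 ± 0.34 (limma adjusted p = 0.548, 0.59 and 0.843), and 0 of the 3 passed, nor did any at an unadjusted p under 0.05. The direction of each changed under some alternatives. Crp was well above background on 0 NC arrays and 1 HE array and was not tested.

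Of 20 other secreted or adhesive organisers of excitatory synapses, 1 rose and 2 fell, against 20.1% of all genes called. Lgi1, a secreted protein that links AMPA receptors to presynaptic partners, rose by 0.6 ± 0.12 (limma adjusted p = 0.0152), from 0.51 to 0.82 in NC to 0.95 to 1.59 in HE. All its HE arrays lay above all NC arrays, as for 5.90% of all genes. Its probes did not all go the same way, with 1 of 3 of opposite sign, and as the mean of its probes it was 0.2 and not called (limma adjusted p = 0.181). Olfm3, an olfactomedin, fell by 0.58 on the log2 scale (SE 0.13, limma adjusted p = 0.018). All its HE arrays lay below all NC arrays, as for 10.5% of all genes. Cbln1, a cerebellin that bridges synapses and is also made in the thalamus, fell by 1.38 (SE 0.42, limma adjusted p = 0.0441), with overlapping groups. Lrrtm2 differed by -0.41 ± 0.16 (adjusted p = 0.0917, limma). Lgi1 and Olfm3 passed with any 1 array left out, and Cbln1 in 3 of 10 such fits (-1.17, limma adjusted p = 0.0988, without NC 2). With slide as a block 0 of the 3 passed, at 0.47 ± 0.22 for Lgi1, -0.85 ± 0.24 for Olfm3 and -1.94 ± 0.86 for Cbln1, and Cbln1 also did not pass as the mean of its probes (-1.06, limma adjusted p = 0.089). After normexp background correction Lgi1 and Cbln1 passed, and Olfm3 did not (-0.33, limma adjusted p = 0.236).

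Nptx2 is itself induced by activity, so 28 other activity-induced genes were read beside it. Of these 3 rose, 0 fell and 25 did not pass, where 6.82% of all genes were called higher. Differences were above 0 for 26 of the 28, and for 9099 of all 20068 genes. The list's median difference was 0.53. The median was 0.3 without NC 5 and 1.27 with slide as a block, where 3 passed and 19 had an unadjusted p under 0.05. The count of 3 rose to 6 without NC 1 and 5 without HE 4, was 3 without NC 3, and fell to 2 without any other array. Egr3, an immediate early transcription factor, was 1.04, -0.1, 0.74, 0.02 and -1.09 on NC 1 to NC 5, and 1.9, 1.74, 2.22, 1.41 and 1.63 on HE 1 to HE 5. Its HE arrays lay above all NC arrays, as for 5.90% of all genes, and it rose by 1.66 ± 0.36 (SE), or 3.16-fold (limma adjusted p = 0.0162). Sorcs3, a sorting receptor, rose by 0.67 ± 0.15 and Crem, a transcription factor of cyclic AMP signalling, by 0.43 ± 0.13 (limma adjusted p = 0.0189 and 0.0392). Per1, a clock gene that is also induced by activity, differed by 0.69 ± 0.22 (limma adjusted p = 0.0534). Crem did not pass as the mean of its probes (0.45, limma adjusted p = 0.064). Sorcs3 and Crem did not pass with slide as a block, at 0.78 ± 0.27 and 0.59 ± 0.26. Egr3 and Sorcs3 passed with any 1 array left out and Crem in 3 of 10 such fits (0.4, limma adjusted p = 0.0912, without HE 1).

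The median of this list varied from array to array within both groups. It was 1.27, 1.08, 1.17, 0.98 and 0.13 on NC 1 to NC 5, and 1.77, 1.84, 2.38, 1.19 and 1.63 on HE 1 to HE 5. NC 5 was lowest and HE 3 highest, and HE 4 lay among the controls. HE 3 also had the highest Nptx2 of all arrays and HE 4 the lowest of its group. Among the controls the extremes differed: the list was highest on NC 1 and lowest on NC 5, Nptx2 highest on NC 3 (-0.08) and lowest on NC 4 (-1.39).

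Parvalbumin interneurons, on which the pentraxins are known to gather AMPA receptors, and the perineuronal nets around them were read from 14 genes, of which 1 rose and 3 fell, against 20.1% of all genes called. The thalamus and habenula markers also fell, 10 of 16 with a median of -1.65, and their part in these falls was not tested. Pvalb, the calcium buffer that names these cells, fell by 0.74 on the log2 scale (SE 0.18, limma adjusted p = 0.0216), with 1.1 to 1.8 in NC and 0.34 to 1.12 in HE. Kcnc2 and Kcnc1, potassium channels of fast-spiking cells, fell by 0.88 and 0.55 (SE 0.24 and 0.16, limma adjusted p = 0.031 and 0.0409). For Kcnc1, 2 of 3 probes had the opposite sign, and as their mean it was -0.09 and not called (limma adjusted p = 0.636). Syt2, a calcium sensor of their terminals, rose by 0.88 ± 0.24 (limma adjusted p = 0.0331), but was -0.5 with normexp background correction. All 4 overlapped between the groups. With slide as a block 0 of the 4 passed, at -0.74 ± 0.36 for Pvalb, -1.24 ± 0.47 for Kcnc2, 0.98 ± 0.45 for Syt2 and -0.65 ± 0.34 for Kcnc1. After normexp background correction Pvalb passed (-0.61, limma adjusted p = 0.0356). Kcnc2 and Kcnc1 did not, at -0.68 and -0.35 (limma adjusted p = 0.0686 and 0.181). With 1 array left out, Pvalb passed in 9 of 10 fits (-0.71, limma adjusted p = 0.0502, without NC 5), Kcnc2 in 4, Syt2 in 3 and Kcnc1 in 2. In limma the list had 0 called without NC 5, with 6 at an unadjusted p under 0.05, and 1 without HE 1 or HE 5. The other 10 genes, Gad1, Gad2 and those of the nets among them, did not pass.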

How the data were processed

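Scans were quantified with Agilent Feature Extraction 10.7, as the submitters' processing notes state. Deposited scanner files give spot intensity on a linear scale, background-subtracted and detrended within each array, per the file headers. The authors also deposited a table of log2 values, whose making is not given in the sources used here. Its columns share 1 distribution.

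From log2 processed signals the 75th percentile of an array's non-control spots was subtracted. Outlier spots were left out (68 to 129 per array), and 0 spots were saturated. A probe entered if well above background on at least 3 of 5 arrays of a group. A gene's value is that of its entering probe with the highest mean. Probes were named through the RefSeq gene table of assembly GRCm38.p6, used for names only (27668 by first accession, 93 by another accession, 5991 by symbol), and 7422 kept the file's name. HE was tested against NC with limma 3.58.1 under R 4.3.3 (lmFit, eBayes, two-sided, no covariate), with Benjamini-Hochberg adjustment over 20068 genes, checked on simulated data. Members and lists were chosen with earlier results of these data known. Named were all members, the 4 genes of each list with the smallest p, the 6 genes with an ordinary symbol most like Nptx2, Xist and Ddx3y. Genes outside this rule that appear (Cbx6, Gsg1l, Cnih3, Nptn, Nr4a3, Ptgs2, Crp, Gad1, Gad2) were picked after their values were seen. Median centring and the capped normexp correction were chosen after seeing the data. Results were also computed with slide or replicate number in the fit (slide fixed or random), within slide 2, after normexp (offset 50) or quantile normalization, from the authors' log2 table, with other ways to filter or join probes, with an intensity trend, by the Xist pattern, and with arrays left out.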

Additional observations from a re-analysis of the deposited data

Results flagged for a closer look

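Within 62 groups of 5 arrays (the 4 member probes and the named list genes, in each group), 4 held an array that stood apart by Dixon's test, and chance flags about 1 in 20 groups. The 4 member probes held none. Gria1 was 4.83 on NC 4, where the next control was at 4.09. Gria4 was 1.2 on HE 3, below the next HE array at 1.57. Ptx3 was -7.74 on HE 3 with the next at -6.12, and Ptx4 was -7.36 on HE 3 with the next at -6.06. Both are close to background.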

How the results depend on the processing

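The difference of Nptx2 was above 0 under 25 of 25 alternatives (1.41 to 1.95), that of Npcd/Nptxr under 26 of 26 and that of Nptx1 under 24 of 25. With slide as a fixed block or slide 2 alone, Nptx1 moved to 2.39 and Npcd/Nptxr to 2.18. With slide as a fixed block, calls fell from 22 to 4 in the lists and from 4031 to 185 over all genes. With arrays of high Xist alone they were 0 and 77, and without NC 1, NC 2 and NC 4 they were 18 and 1918. Leaving out 1 array gave 0.66 to 1.17 for Nptx1, 1.41 to 1.74 for Nptx2, 0.79 to 1.34 for Npcd/Nptxr, 9 to 25 list calls and 1925 to 4177 calls in all, with 1925 without NC 2, 1974 without HE 1 and 2219 without NC 5. The labels do not say whether equal replicate numbers pair animals. Same-numbered deviations correlated at -0.077 to 0.127, and 2 of 5 arrays matched their own number best, too few pairs to decide it. The replicate block gave 12 list calls and 2976 in all. Its SE was 0.25 for Nptx1, 0.21 for Nptx2 and 0.3 for Npcd/Nptxr, against 0.37, 0.26 and 0.34 without it.

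With normexp, Nptx1 was -0.49 (-0.19 relative to the median of all genes, which was -0.29) and 8880 genes were called, 1787 of them higher. On NC 1, NC 2 and NC 4, 8, 1 and 2 spots lay over 50 below a local background of up to 34500, and the corrected signal at the 1st percentile was 586, 209 and 370, against 54.9 to 58.7 on the other arrays. On NC 1 the Nptx1 spot read 120 over a background of 44 and was given 646. With local background capped at its 99th percentile, Nptx1 was 0.36 and 5858 genes were called, 1343 of them higher. Normexp also turned Cacng8 (-0.34), Syt2 (-0.5), Gpc6 (-0.53), Ptx3 (-1.33) and Ptx4 (-1.39), and the capped form Ptx3 (-0.11) and Ptx4 (-0.18). Ptx4 was -0.34 with slide as a fixed block, and Ptx3 and Ptx4 were -0.14 and -0.09 without NC 1, NC 2 and NC 4. Apcs turned to 0.2 with quantile normalization and in the authors' value table, 0.43 on the high-Xist arrays, and 0.07 and 0.12 without NC 5 or HE 5 (-0.32 to 0.12 over the arrays left out). Lrrtm2 was 0.09 as the mean of its probes. The cause of these changes of sign, those with normexp included, was not tested. Of 672 values of named list genes under alternatives, 499 kept direction and side of the threshold, 141 lost the call, 16 gained one and 16 turned.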
